A study of Homo sapiens with 8 samples.

Results

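The 9 genes described here encode matrix proteases and their inhibitors: MMP1, MMP2, MMP3, MMP14, TIMP1, TIMP2, TIMP3, PLAU and PLAUR. They were taken by symbol from the 19414 coding genes listed in every file, and each of the 9 was found. TT-seq was used to measure newly made RNA: cells build the base analogue 4-thiouridine (4-SU) into RNA made while it is present. The cells were U2OS, a human osteosarcoma line. The 8 libraries form 4 groups of 2, by the genotype the labels give: MYC O/E, Zab, Zab + MYC O/E and WT. O/E is read here as overexpression; the labels state neither the construct behind Zab, nor how MYC was overexpressed, nor whether a genotype is 1 clone, and no treatment or time separates the groups.

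Matrix metalloproteinases (MMPs) are zinc-dependent enzymes that cut collagens and other proteins of the extracellular matrix, and most are secreted as inactive precursors. TIMP proteins bind and block the active enzymes, while TIMP2 together with the membrane-anchored MMP14 also serves to activate MMP2. Urokinase, encoded by PLAU, binds its receptor, encoded by PLAUR, and turns plasminogen into plasmin, which degrades matrix and activates some MMP precursors. In bone tumours these genes are known mainly for invasion and for remodelling of the matrix around the cells.

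MYC and ADAR, read as checks of the labels, went against them in part. MYC stood at 6562 and 6574 CPM (reads scaled to a common library total, with TMM) in the libraries labelled MYC O/E. The libraries labelled Zab had 932 and 1029 CPM, those labelled Zab + MYC O/E had 747 and 768 CPM, and those labelled WT had 772 and 747 CPM. MYC was thus not raised in the libraries labelled Zab + MYC O/E. ADAR, which encodes an RNA-editing enzyme with Z-nucleic-acid-binding domains, had 444 to 574 CPM in MYC O/E and Zab and 32061 and 32157 CPM in Zab + MYC O/E, against 33757 and 33713 CPM in WT. Counts of all genes also placed Zab + MYC O/E beside WT: the chi-square per gene was 2.657 to 2.761 between a library labelled Zab + MYC O/E and a library labelled WT, 2.003 to 2.044 between replicates, and 23.827 to 40.604 between libraries of any other pair of groups. Since reads mostly came in twos, the value between replicates is about what counting alone gives, so the p-values below measure a spread that may be technical. Libraries held 1839960 to 4072059 recovered coding-exon reads, and coding exons took 6.44 and 6.66 reads per 100 tags in Zab, against 13.1 to 13.8 in the other groups. Whether labels were exchanged between groups was not tested, so each comparison below holds for the libraries as labelled, and what Zab, Zab + MYC O/E and WT stand for is not settled by these levels.

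Of the osteosarcoma and mesenchymal markers checked, VIM, COL1A1 and SPARC were abundant and TWIST1 had 0 reads in all 8 libraries, while COL1A2 had 6 reads in all. VIM made up most of their sum, and the single markers did not share 1 order. RUNX2 averaged 31.3 CPM in MYC O/E, 3.46 CPM in Zab and 11.4 CPM in Zab + MYC O/E, against 8.58 CPM in WT. COL1A1 averaged 268 CPM in Zab against 292 CPM in WT, and SPARC 534 CPM in Zab against 558 CPM in WT. The 8 markers summed to 2349 to 2385 CPM in MYC O/E, 3834 to 4025 CPM in Zab, 3029 to 3097 CPM in Zab + MYC O/E and 3243 to 3343 CPM in WT.

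Promoter sequences of RefSeq (GRCh38.p14) were matched for 5 of the 9 genes: MMP14, TIMP1, TIMP3, PLAU with 2 start sites, and PLAUR. The 250 bases before the start are printed for TIMP1, PLAU (the second start) and PLAUR, which share an order of CPM across the groups. They are also printed for TIMP3, which has another order. MMP14 is not printed, though it too had its lowest CPM in MYC O/E and its highest in Zab. Capitals mark the AP-1 site TGAGTCA, its variant TGAGTAA or the ETS core AGGAAG, on either strand, and each sequence runs 5′ to 3′ on the gene's strand.
TIMP1, chrX:47582186-47582435, plus strand: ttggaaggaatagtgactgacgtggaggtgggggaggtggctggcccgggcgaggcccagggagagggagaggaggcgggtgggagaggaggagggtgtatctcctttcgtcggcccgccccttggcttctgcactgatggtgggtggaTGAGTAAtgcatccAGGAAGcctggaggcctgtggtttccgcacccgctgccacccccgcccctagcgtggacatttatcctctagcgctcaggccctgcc
PLAU, chr10:73910882-73911131, plus strand: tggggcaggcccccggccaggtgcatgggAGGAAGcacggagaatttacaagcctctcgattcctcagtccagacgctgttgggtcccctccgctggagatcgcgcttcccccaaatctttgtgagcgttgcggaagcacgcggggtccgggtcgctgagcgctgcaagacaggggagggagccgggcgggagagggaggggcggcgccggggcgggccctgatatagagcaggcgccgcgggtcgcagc
PLAUR, chr19:43670170-43670419, minus strand: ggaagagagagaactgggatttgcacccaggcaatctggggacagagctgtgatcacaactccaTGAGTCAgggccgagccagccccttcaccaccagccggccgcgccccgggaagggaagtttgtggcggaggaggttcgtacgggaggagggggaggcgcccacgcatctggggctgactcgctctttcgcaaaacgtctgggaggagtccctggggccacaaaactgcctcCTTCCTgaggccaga
TIMP3, chr22:32801455-32801704, plus strand: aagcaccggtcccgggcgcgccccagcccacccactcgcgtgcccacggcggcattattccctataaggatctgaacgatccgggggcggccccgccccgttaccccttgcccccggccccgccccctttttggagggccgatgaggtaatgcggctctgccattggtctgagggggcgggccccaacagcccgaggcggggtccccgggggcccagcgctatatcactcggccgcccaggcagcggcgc

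Counted from the start site, TIMP1 held TGAGTAA at -101 and AGGAAG at -87, PLAUR held TGAGTCA at -186 and the ETS core on the opposite strand at -15, and PLAU held AGGAAG at -221. The windows of TIMP3, of MMP14 and of the first PLAU start held none of these letters, and none of the 6 windows held the E-box CACGTG, the site that MYC is known to bind. Among 35116 RefSeq windows of the same length, 4.20% held TGAGTCA, 2.21% held TGAGTAA, 28.7% held AGGAAG and 6.34% held CACGTG. No matches overlapped. TGAGTAA was searched because it is known from the TIMP1 promoter, so its match there was fixed by that choice. The window of MMP14 held none of the letters although MMP14 was likewise lowest in MYC O/E and highest in Zab by CPM. In the values as deposited, without TMM, MMP14 averaged 39.9 in Zab against 61.5 in Zab + MYC O/E, and PLAUR 44.5 against 51.3. TIMP1 and PLAU were highest in Zab in those values too. Whether the letters go with the levels was not tested. The TIMP3 window was 72.4% G and C with 26 CpG dinucleotides, against a median of 58% over all windows.

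**Figure D1:**
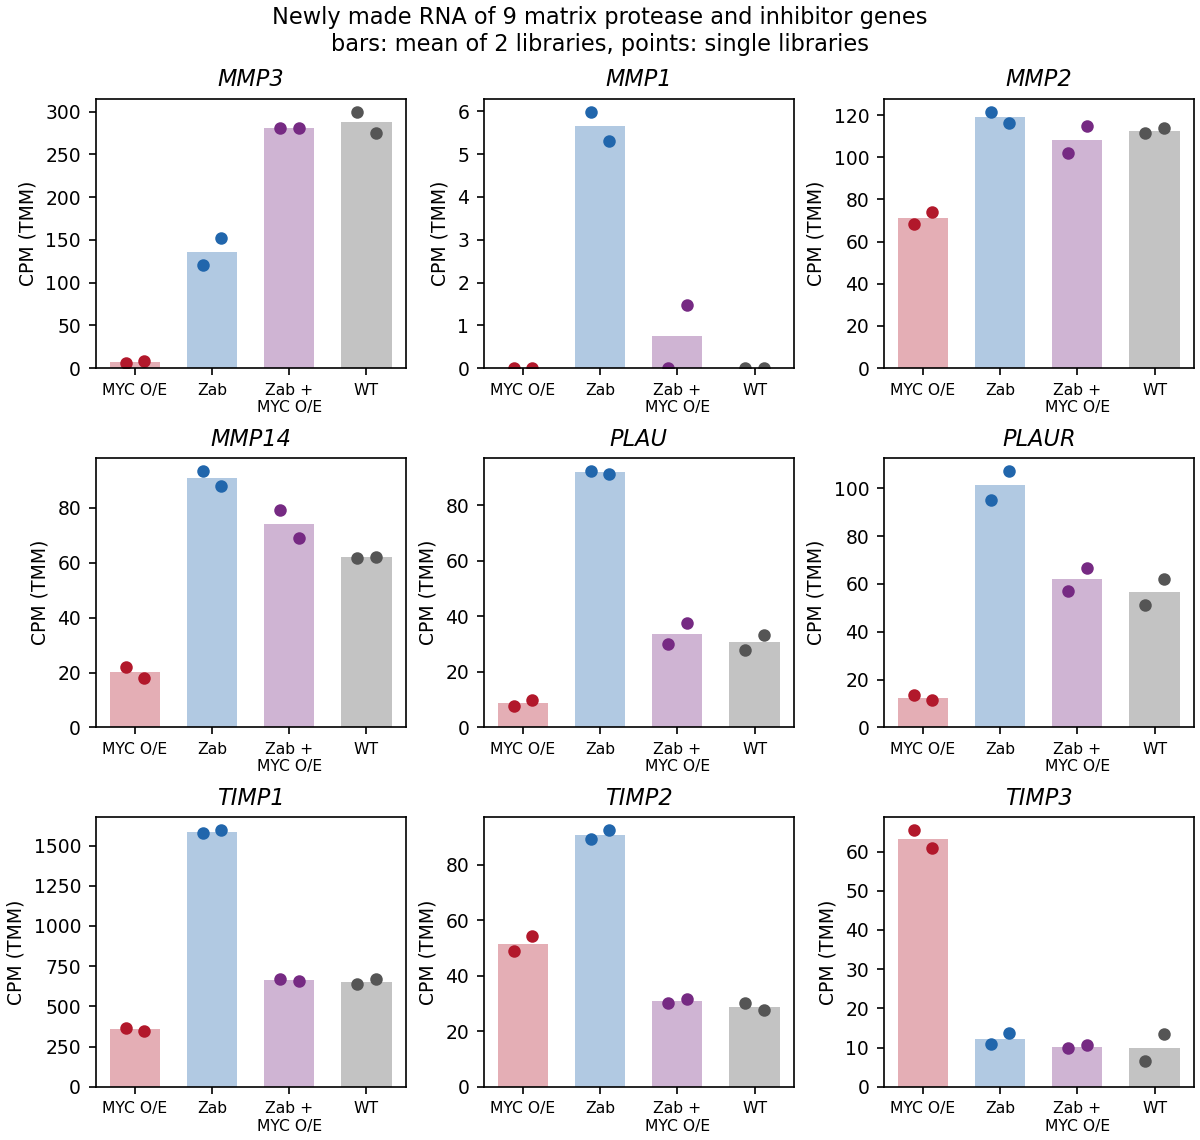
Level of each of the 9 genes in CPM (vertical axes, each starting at 0) in the 4 labelled groups; bars are means and points the 2 libraries of a group. MMP3 is at 5.67 and 8.37 CPM in MYC O/E against 275 and 300.0 CPM in WT, and TIMP3 is high only in MYC O/E among these 4 groups.

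The first comparison was MYC O/E against WT. ADAR differed between these groups as well as MYC, at a mean of 453 CPM in MYC O/E against 33735 CPM in WT, so changes that go with MYC and with ADAR cannot be told apart. Most of the proteases and the urokinase pair were lower in MYC O/E, led by MMP3 at 41.0-fold. The inhibitors were split: TIMP1, by far the most abundant of them, was 1.83-fold lower, while TIMP2 and TIMP3 were higher. Of the 8 genes with reads in every library, 2 rose and 6 fell at a limma adjusted p under 0.05, where 44.0% of all 11985 tested genes were called, 22.2% higher and 21.8% lower. Their median log2 change was -1.23, against -0.01 over all tested genes. MMP1 had 0 reads in both groups. Scaled as deposited, that is by a factor of each library whose basis was not given, 2 rose and 5 fell with a median of -0.74, and 5879 of all tested genes were higher and 1159 lower. The processing notes name a fly genome build. Whether that factor rests on added fly RNA was not given, and which of the 2 scales is closer to the amounts of RNA made was not tested. In bulk RNA, fewer cells making a transcript and less of it per cell cannot be told apart.

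MMP3 encodes stromelysin 1, which cuts many matrix proteins and activates other MMP precursors; its transcript lies at chr11:102706532-102714340 (minus strand; positions of genes are in hg19). It stood at 5.67 and 8.37 CPM in MYC O/E, 121 and 152 CPM in Zab, 281 and 281 CPM in Zab + MYC O/E, and 300.0 and 275 CPM in WT. Levels in MYC O/E lay far below all others, those in Zab lay between, and those in Zab + MYC O/E and WT overlapped. The log2 change of MYC O/E over WT was -5.19 (SE 0.14; limma adjusted p = 1.25e-21), and that of Zab over WT was -1.08 (SE 0.14; limma adjusted p = 2.89e-07), which was -1.70 on the deposited scale. MMP3 was the only one of the 9 genes called lower in Zab than in WT; on the deposited scale MMP2 was called lower as well.

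MMP1 encodes interstitial collagenase, which cuts fibrillar collagen, and lies at chr11:102660650-102668891 (minus strand). It had 10 reads in each library labelled Zab (5.99 and 5.31 CPM), 0 and 6 reads in Zab + MYC O/E, and 0 reads in every library of MYC O/E and WT. For a count of 0 the floor was taken as 6 reads over the group, which is 3 counts where reads come in twos. The mean level in Zab was 7.48 times this floor in MYC O/E and 5.55 times this floor in WT. These ratios allow for the counting error of the 0 only, so they are not lower bounds on the change. The 20 reads in Zab have an exact 95% Poisson interval of 9.59 to 36.8 reads when counted in twos. MMP1 passed the filter on low counts through Zab alone, so its limma call in Zab over WT (adjusted p = 0.00116) is no independent count. DESeq2 gave an adjusted p of 0.289 for the same comparison.

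MMP2 encodes gelatinase A, which degrades denatured collagen and the collagen of basement membranes, and lies at chr16:55513110-55540603 (plus strand). Its levels were 68.5 and 74.1 CPM in MYC O/E, 122 and 116 CPM in Zab, 102 and 115 CPM in Zab + MYC O/E, and 112 and 114 CPM in WT. The 3 groups other than MYC O/E lay close together, with adjusted p between 0.331 and 0.967 for the pairs among them. MYC O/E over WT gave a log2 change of -0.65 (SE 0.11; limma adjusted p = 2.55e-05). On the deposited scale, without TMM, this became -0.16 (limma adjusted p = 0.223), where the median of all genes moved by 0.46. Zab over WT was then -0.55 (limma adjusted p = 9.53e-05), where that median moved by -0.62.

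MMP14 encodes the membrane-anchored collagenase MT1-MMP and lies at chr14:23305794-23316967 (plus strand). It had 21.9 and 18.2 CPM in MYC O/E, 93.5 and 88.1 CPM in Zab, 79.4 and 69.1 CPM in Zab + MYC O/E, and 61.9 and 62.2 CPM in WT. No library of MYC O/E reached a level found elsewhere, and Zab was highest. The log2 change of MYC O/E over WT was -1.59 (SE 0.15; limma adjusted p = 2.07e-09). Zab over WT gave 0.54 (limma adjusted p = 0.00478), which missed the threshold with library totals as the scale (0.34, adjusted p = 0.0682) and turned to -0.09 on the deposited scale. Zab + MYC O/E lay between Zab and WT and passed the test against neither (adjusted p = 0.12 against Zab and 0.788 against WT).

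PLAU, urokinase, at chr10:75670859-75677258 (plus strand), had 7.73 and 9.84 CPM in MYC O/E, 92.3 and 91.3 CPM in Zab, 29.9 and 37.5 CPM in Zab + MYC O/E, and 27.7 and 33.4 CPM in WT. PLAUR, its receptor, at chr19:44152731-44174321 (minus strand), had 13.4 and 11.6 CPM in MYC O/E, 95.3 and 107 CPM in Zab, 57.2 and 66.6 CPM in Zab + MYC O/E, and 51.3 and 62.2 CPM in WT. Both genes therefore ran in the same order, with MYC O/E lowest, Zab highest, and Zab + MYC O/E overlapping WT. Over WT, PLAU changed by -1.69 (SE 0.21; limma adjusted p = 1.47e-07) in MYC O/E and by 1.56 (SE 0.21; limma adjusted p = 5.39e-07) in Zab, on the log2 scale. The same changes for PLAUR were -2.10 (SE 0.17; limma adjusted p = 6.54e-11) and 0.83 (SE 0.17; limma adjusted p = 0.000208). The transcript counted for PLAU was the 2322-base one in MYC O/E and Zab and the 2646-base one in the other 2 groups. Per base of the transcript counted, the PLAU changes were -1.52 and 1.74. In Zab over WT the deposited scale gave 0.92 for PLAU (limma adjusted p = 0.00025) and 0.20 for PLAUR (limma adjusted p = 0.316).

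TIMP1, a secreted inhibitor of most MMPs, lies at chrX:47441835-47446188 (plus strand) and had the highest CPM per kb of transcript of the 9 genes in every library. It had 366 and 349.9 CPM in MYC O/E, 1578 and 1595 CPM in Zab, 669 and 656 CPM in Zab + MYC O/E, and 641 and 667 CPM in WT. Its groups ran in the order of PLAU and PLAUR, and the 2 libraries of each group lay close together. The log2 change over WT was -0.87 (SE 0.047; limma adjusted p = 1.82e-14) in MYC O/E and 1.28 (SE 0.047; limma adjusted p = 2.3e-18) in Zab. On the deposited scale -0.37 was left in MYC O/E (limma adjusted p = 3.65e-07) and 0.64 in Zab (limma adjusted p = 3.99e-12).

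TIMP2, the inhibitor that also takes part in MMP2 activation, lies at chr17:76849059-76921469 (minus strand) and was raised in both MYC O/E and Zab. It had 48.9 and 54.1 CPM in MYC O/E, 89.3 and 92.4 CPM in Zab, 30.2 and 31.6 CPM in Zab + MYC O/E, and 30.00 and 27.7 CPM in WT. MYC O/E and Zab each lay above every library of the other 2 groups. The log2 change over WT was 0.81 (SE 0.16; limma adjusted p = 0.000173) in MYC O/E and 1.62 (SE 0.16; limma adjusted p = 3.68e-09) in Zab, against 0.98 in Zab as deposited (limma adjusted p = 4.18e-06). Zab exceeded MYC O/E under TMM (log2 change of MYC O/E over Zab -0.81, limma adjusted p = 0.000131), and on the deposited scale this turned to 0.31 (adjusted p = 0.0835).

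TIMP3, an inhibitor that stays bound to the matrix and also blocks several ADAM proteases, lies at chr22:33196802-33259028 (plus strand). It had 65.4 and 61.0 CPM in MYC O/E, 10.8 and 13.8 CPM in Zab, 9.79 and 10.6 CPM in Zab + MYC O/E, and 6.45 and 13.5 CPM in WT. MYC O/E stood apart at 6.33-fold over WT. The 2 WT libraries spread widely and overlapped Zab and Zab + MYC O/E, while Zab lay just above Zab + MYC O/E. The log2 change of MYC O/E over WT was 2.63 (SE 0.29; limma adjusted p = 3.18e-08), and leaving out 1 library gave 2.144 to 3.105. Zab over WT was 0.35 (adjusted p = 0.345) and rested on the 2 WT libraries: it was -0.14 without WT replicate 1 and 0.82 (adjusted p = 0.0478) without WT replicate 2.

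Zab against WT asked how the genes differed in the libraries labelled Zab, which also had far less ADAR than WT. PLAU, PLAUR, TIMP1, TIMP2 and MMP14 were higher and MMP3 was lower. Of the 8 genes with reads in every library, 5 rose, 1 fell and 2 (MMP2 and TIMP3) did not pass, where 49.7% of all tested genes were called, 23.8% higher and 25.9% lower. Their median log2 change was 0.68, against -0.05 over all tested genes. Of the same 8 genes, 4 rose and 1 fell with library totals, and 3 rose and 2 fell on the deposited scale, where their median was 0.06. Scaled as deposited, all tested genes gave 578 higher and 6889 lower in Zab over WT, against 2850 and 3106 under TMM and 1888 and 4149 with library totals. Among markers of other cell types, KRT8 and KRT18 were lowest in MYC O/E and highest in Zab, but EPCAM and CDH1 were not. The 4 epithelial markers summed to 864 to 901 CPM in MYC O/E, 2379 to 2512 CPM in Zab, 1256 to 1278 CPM in Zab + MYC O/E and 1358 to 1393 CPM in WT. Nearly all of this sum was KRT8 and KRT18, while the defining markers EPCAM and CDH1 had 0 reads in Zab. EPCAM averaged highest in MYC O/E (4.27 CPM) and CDH1 in WT (2.10 CPM). The 4 leukocyte markers summed to between 11.3 and 41.3 CPM, nearly all of it CD68, with PTPRC at 10 reads in all, and the 4 endothelial markers to at most 2.58 CPM. The part of these markers, and of the lower coding share in Zab, in the changes of the 9 genes was not tested.

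**Figure D2:**
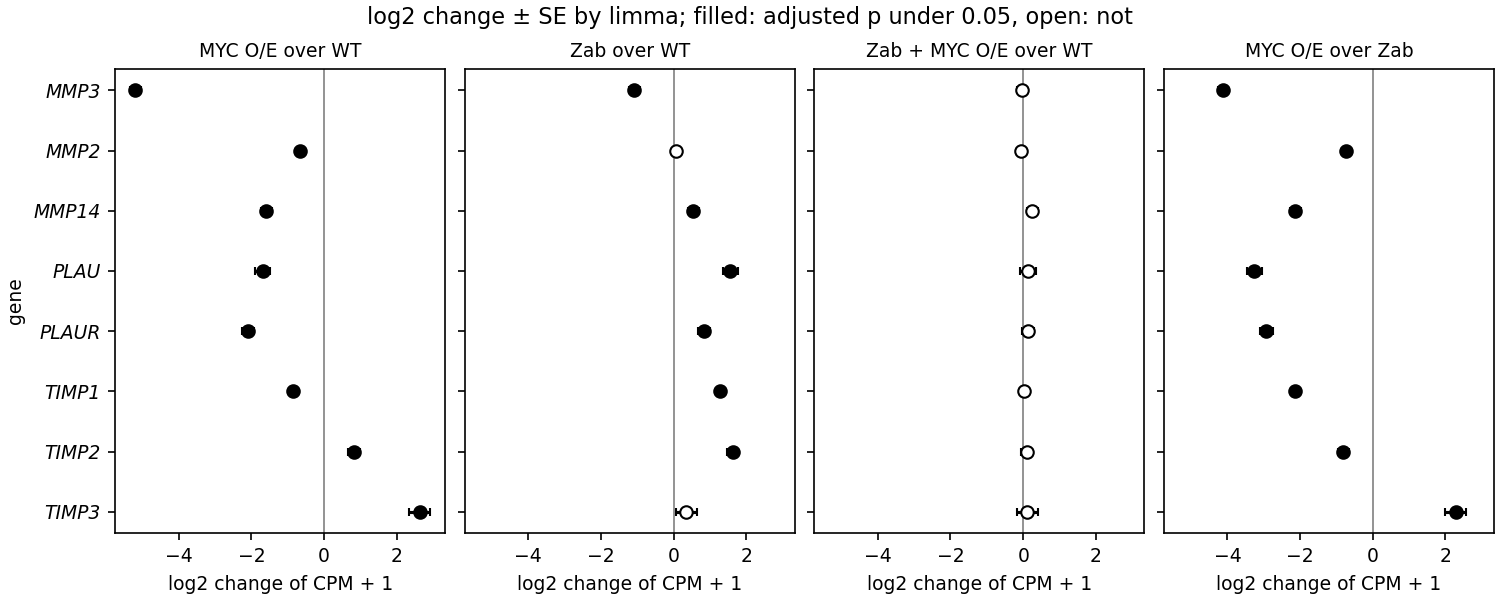
Change of 8 genes (rows) on the log2 scale of CPM + 1 (horizontal axes) in 4 comparisons, with bars for the standard error; filled points passed a limma adjusted p of 0.05 and open points did not. MMP1 is left out because 2 groups had 0 reads; in Zab + MYC O/E over WT all 8 points are open, and the changes range from -0.06 to 0.25.

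In Zab + MYC O/E against WT, 0 of the 8 genes with reads in every library passed limma's test, and edgeR and DESeq2 on the recovered reads each called 0 of them. Of all 9 genes, 0 had an unadjusted limma p under 0.05 (the smallest was 0.114). All tested genes were called at 0.601% in this comparison, 0.134% higher and 0.467% lower. The log2 changes of the 8 genes with reads in every library lay between -0.06 for MMP2 and 0.25 for MMP14, with standard errors of 0.047 to 0.29, so a small difference was not detectable for genes such as TIMP3. On the deposited scale MMP14 (0.52, adjusted p = 0.0213) and TIMP1 (0.30, adjusted p = 0.000476) were called higher, where the median of all genes moved by 0.26.

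MYC O/E set directly against Zab gave large differences for the urokinase pair and MMP14. TIMP3 rose and the other 7 genes with reads in every library fell, where 56.3% of all tested genes were called, 29.6% higher and 26.7% lower. PLAU was 10.4-fold lower in MYC O/E than in Zab, PLAUR 8.11-fold, MMP14 4.53-fold and TIMP1 4.43-fold lower, and MMP3 19.4-fold lower. These 5 stayed lower as deposited, but by less: the log2 change was -2.13 for PLAU, against -3.25 under TMM, and -1.81 against -2.92 for PLAUR. It was -1.01 against -2.13 for MMP14, -1.01 against -2.14 for TIMP1, and -2.98 against -4.11 for MMP3, while that of TIMP3 was 3.28 against 2.28. The median log2 change of the 8 genes was -2.14 (-1.01 as deposited), against 0.05 over all tested genes. On the deposited scale MMP2 was instead higher in MYC O/E (0.39, adjusted p = 0.00256), where the median of all genes moved by 1.08. Of the 8 genes 2 were then higher and 5 lower, and all tested genes gave 9003 higher and 598 lower.

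Zab + MYC O/E set against MYC O/E gave 6 genes higher and 2 lower (TIMP2 and TIMP3) of the 8, where 44.5% of all tested genes were called, 21.9% higher and 22.6% lower. MMP3 was 40.1-fold higher in Zab + MYC O/E than in MYC O/E, PLAUR 4.96-fold, PLAU 3.84-fold and MMP14 3.70-fold. Zab + MYC O/E set against Zab gave 1 gene higher, MMP3 at 2.06-fold, and 4 lower (TIMP1, TIMP2, PLAU and PLAUR), where 49.9% of all tested genes were called, 25.8% higher and 24.1% lower. On the deposited scale PLAUR turned to 0.20 in the last comparison, and MMP2 (0.77) and MMP14 (0.61) were called higher. The change became larger for MMP3 (1.95, against 1.05 under TMM) and smaller for TIMP1 (-0.34 against -1.26), TIMP2 (-0.62 against -1.53) and PLAU (-0.52 against -1.43). Of the 8 genes 3 were higher and 3 lower on that scale. All tested genes then gave 8829 higher and 239 lower, or 4285 and 1742 with library totals, against 3094 and 2885 under TMM. These comparisons, and the interaction that follows, share their libraries with those above, so their counts are not separate evidence. The interaction, which is the change of Zab + MYC O/E over MYC O/E minus that of Zab over WT, was called for 7 of the 8 genes, 4 higher and 3 lower, where 53.1% of all tested genes were called, 28.3% higher and 24.8% lower. PLAU did not pass (0.27, adjusted p = 0.466), and on the deposited scale PLAU was called higher (0.69, adjusted p = 0.0434). That scale gave 5 genes higher and 2 lower, and library totals 4 and 2, with 4590 of all tested genes higher and 2134 lower by library totals and 5035 and 1854 as deposited.

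The balance of inhibitor to protease transcripts was read within each library from the sums of CPM per kb of transcript, which does not depend on how libraries are scaled. The 3 TIMP genes exceeded the 4 MMP genes by 17.7 and 15.8 times in MYC O/E, 16.2 and 14.8 times in Zab, 4.32 and 4.21 times in Zab + MYC O/E, and 3.97 and 4.41 times in WT. Both MYC O/E and Zab lay above every library of the other 2 groups, and they overlapped each other. An exact two-sided permutation test of 2 libraries against 2 cannot go below p = 0.333, so the ratio is given as a description, with no test. The sums behind the ratio differed: the MMP sum was 28.7 and 30.8 CPM per kb in MYC O/E and 130.4 and 144 in Zab, against 215 and 202 in WT. The TIMP sum was 509 and 488 CPM per kb in MYC O/E and 2108 and 2133 in Zab, against 855 and 891 in WT. Under TMM the mean MMP sum was 7.01-fold lower in MYC O/E and 1.52-fold lower in Zab than in WT, and the mean TIMP sum was 1.75-fold lower in MYC O/E and 2.43-fold higher in Zab. The split depends on the scale, unlike the ratio: as deposited, the MMP sum was 2.36-fold lower and the TIMP sum 1.56-fold higher in Zab than in WT. In MYC O/E the MMP sum was then 4.97-fold lower and the TIMP sum 1.24-fold lower than in WT.

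**Figure D3:**
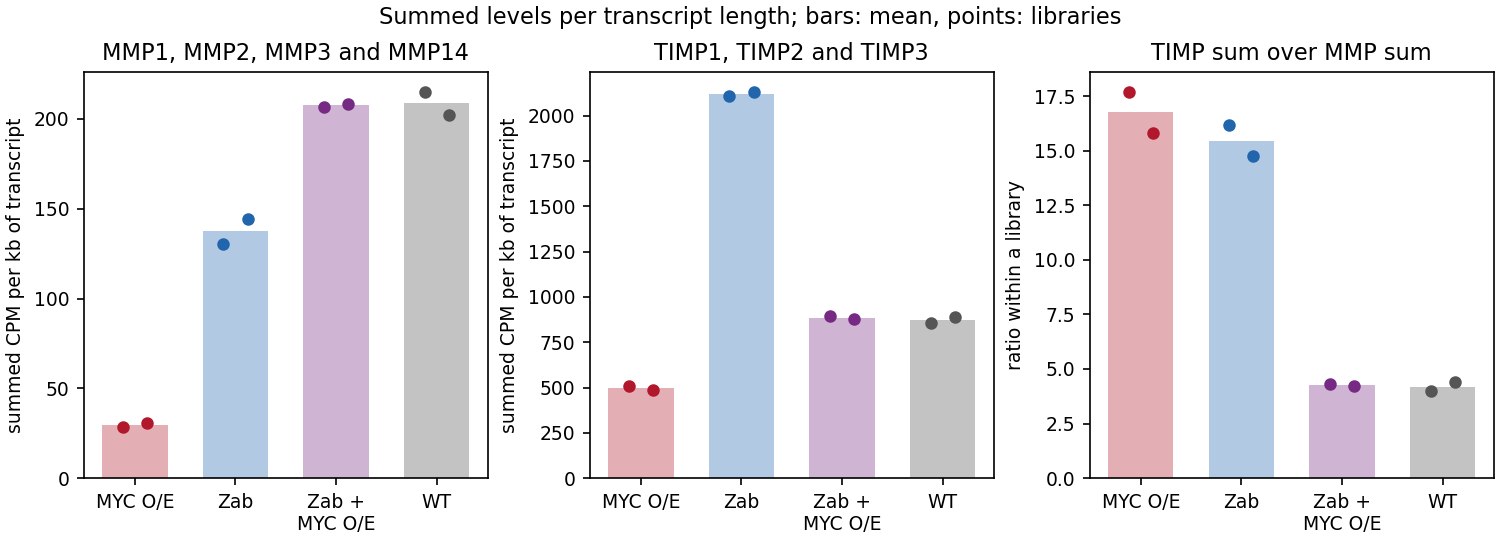
Summed CPM per kb of transcript of the 4 MMP genes (left) and the 3 TIMP genes (middle), and their ratio within each library (right), by labelled group; bars are means and points the 2 libraries. The ratio lies between 14.8 and 17.7 in MYC O/E and Zab and between 3.97 and 4.41 in Zab + MYC O/E and WT.

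The makeup of the MMP sum changed with MMP3. MMP3 made up 10.9% and 15.1% of the sum in MYC O/E, 51.5% and 58.3% in Zab, 75.5% and 74.8% in Zab + MYC O/E, and 77.3% and 75.5% in WT. MMP2 made up 68.4% and 68.9% in MYC O/E, 26.7% and 23.1% in Zab, 14.1% and 15.8% in Zab + MYC O/E, and 14.9% and 16.1% in WT. MMP2 was therefore the leading one of the 4 in MYC O/E and MMP3 in the other groups. TIMP1 was 94.7% to 98.9% of the TIMP sum in every library, so the rise of TIMP3 in MYC O/E took its share of that sum only to 2.35% and 2.28%, against 0.138% and 0.277% in WT.

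MMP1 and MMP3 lie 37.6 kb apart in a cluster of 9 MMP genes on the minus strand of chromosome 11 (hg19, 102391239 to 102826461). Of these genes only MMP3 was well covered, with 4478 reads over the 8 libraries. The other 8 held 80 reads together, from 0 for MMP20 and MMP27 to 26 for MMP1. MMP10, the stromelysin 2 gene next to MMP1, had 24 reads and MMP13, collagenase 3, had 18. Of these neighbours of MMP3 only MMP1 was tested. It passed the filter on low counts through Zab alone, so its calls are no independent evidence of a change. For the others a change was not detectable, since each had too few reads.

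Other genes of matrix breakdown were read from lists by function, which were chosen with earlier results of these data known. Their shares, set beside those of all tested genes, are descriptions only. Of 19 other MMP genes, 6 had 0 reads in all libraries and 6 were tested. The calls were 1 higher and 3 lower in MYC O/E over WT, and 1 higher and 2 lower in Zab over WT. With 6 genes tested these are shares of 16.7% higher and 50% lower in MYC O/E and 16.7% and 33.3% in Zab, where all tested genes gave 22.2% and 21.8%, and 23.8% and 25.9%. MMP9, gelatinase B, had 3.61 and 2.95 CPM in MYC O/E and 53.9 and 39.3 CPM in Zab, against 11.6 and 13.5 CPM in WT, which is the order of PLAU and PLAUR. MMP16, a membrane-anchored MMP, fell in both, to 31.9 and 44.5 CPM in MYC O/E and 28.8 and 21.2 CPM in Zab, against 96.4 and 77.2 CPM in WT. MMP15, another membrane-anchored MMP, rose to 26.3 and 26.8 CPM in MYC O/E, against 7.74 and 4.98 CPM in WT.

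Among the partners of urokinase, 10 of 14 genes were tested, of which 1 rose and 7 fell in MYC O/E over WT. Their median log2 change was -0.89, against -0.01 over all tested genes. S100A10, which with annexin A2 binds plasminogen at the cell surface, fell by 2.01 on the log2 scale (SE 0.087; limma adjusted p = 1.21e-16), to 80.1 and 68.4 CPM in MYC O/E against 300.0 and 302 CPM in WT. MRC2, a collagen uptake receptor that associates with the urokinase receptor, fell by 1.44 (SE 0.11; limma adjusted p = 8.49e-12). ENO1, a glycolytic enzyme also known as a plasminogen receptor, rose by 0.22 (limma adjusted p = 7.44e-09). The share that fell was 70%, where all tested genes gave 21.8%. For MYC O/E the deposited scale gave 1 higher and 5 lower, where all tested genes gave 49.1% higher and 9.67% lower. In Zab over WT 2 rose and 1 fell, shares no higher than those of all tested genes. Library totals gave 1 and 4 for Zab, where all tested genes gave 15.8% higher and 34.6% lower. The deposited scale gave 1 and 8, where all tested genes gave 4.82% and 57.5%.

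Of 10 other inhibitors and inducers, 6 were tested: 1 rose and 2 fell in MYC O/E over WT (2 and 0 on the deposited scale). In Zab over WT 3 rose and 0 fell (3 and 2 when scaled as deposited). All tested genes were called at 22.2% higher and 21.8% lower in MYC O/E and 23.8% and 25.9% in Zab. As deposited these shares were 49.1% and 9.67%, and 4.82% and 57.5%, and with library totals they were 15.8% and 34.6% in Zab. Counts of so few genes, here and in the lists below, can be read only roughly against these. BSG, which encodes the MMP inducer basigin (CD147), rose to 389 and 399 CPM in MYC O/E and 491 and 517 CPM in Zab, against 255 and 249 CPM in WT. FURIN, a convertase that activates MMP14, changed by -0.55 in MYC O/E and 1.10 in Zab. On the deposited scale FURIN lost its call in MYC O/E (-0.06, adjusted p = 0.628) and was 0.47 in Zab. CST3, the cathepsin inhibitor cystatin C, changed by -0.43 in MYC O/E, which was 0.06 on the deposited scale. Of 21 ADAM and ADAMTS genes 14 were tested, and 0 rose and 4 fell in MYC O/E over WT (2 and 3 on the deposited scale), while Zab over WT gave 2 higher and 5 lower (1 and 6 with library totals, 0 and 10 on the deposited scale). The 4 that fell in MYC O/E are 28.6% of the 14, near the 21.8% of all tested genes. The largest falls in MYC O/E with a mean of at least 5 CPM were ADAMTS6 (-1.90), ADAM12 (-1.89) and ADAM19 (-1.89). Of 10 cathepsins and other matrix proteases 7 were tested, and 0 rose and 6 fell in MYC O/E over WT (1 and 5 on the deposited scale), which is 85.7% lower. In Zab over WT 2 rose and 1 fell (1 and 1 with library totals, 1 and 3 on the deposited scale). The lysosomal proteases CTSB, CTSL and CTSZ changed by -1.04, -0.96 and -0.95 in MYC O/E, and CTSB rose by 1.15 while CTSL fell by 0.81 in Zab.

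AP-1 and ETS factors, which are known to act at promoters of MMP and urokinase genes, were all tested, 14 in number. In MYC O/E over WT 3 rose and 5 fell (6 and 4 on the deposited scale), and in Zab over WT 9 rose and 0 fell (7 and 1 with library totals, 3 and 3 on the deposited scale). These are 21.4% higher and 35.7% lower in MYC O/E, against 22.2% and 21.8% of all tested genes, and 64.3% higher in Zab, against 23.8%. As deposited, all tested genes gave 49.1% higher and 9.67% lower in MYC O/E. In Zab they gave 15.8% and 34.6% with library totals, and 4.82% and 57.5% as deposited. ETS1 fell by 2.12 (SE 0.091; limma adjusted p = 1.1e-16), to 51.5 and 51.4 CPM in MYC O/E against 233 and 220.1 CPM in WT. The Fos-family genes FOSL2 and FOSL1 fell by 1.57 and 1.35 in MYC O/E. JUND, FOS and ETV4 rose there by 1.26, 1.23 and 0.35. In Zab over WT the median log2 change of the list was 0.45, against -0.05 over all tested genes. As deposited it turned to -0.18, where that of all tested genes was -0.62. ETS1 did not pass under TMM (-0.14, adjusted p = 0.195), but was called lower with library totals (-0.35, adjusted p = 0.00245) and as deposited (-0.77, adjusted p = 1.41e-08).

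**Figure D4:**
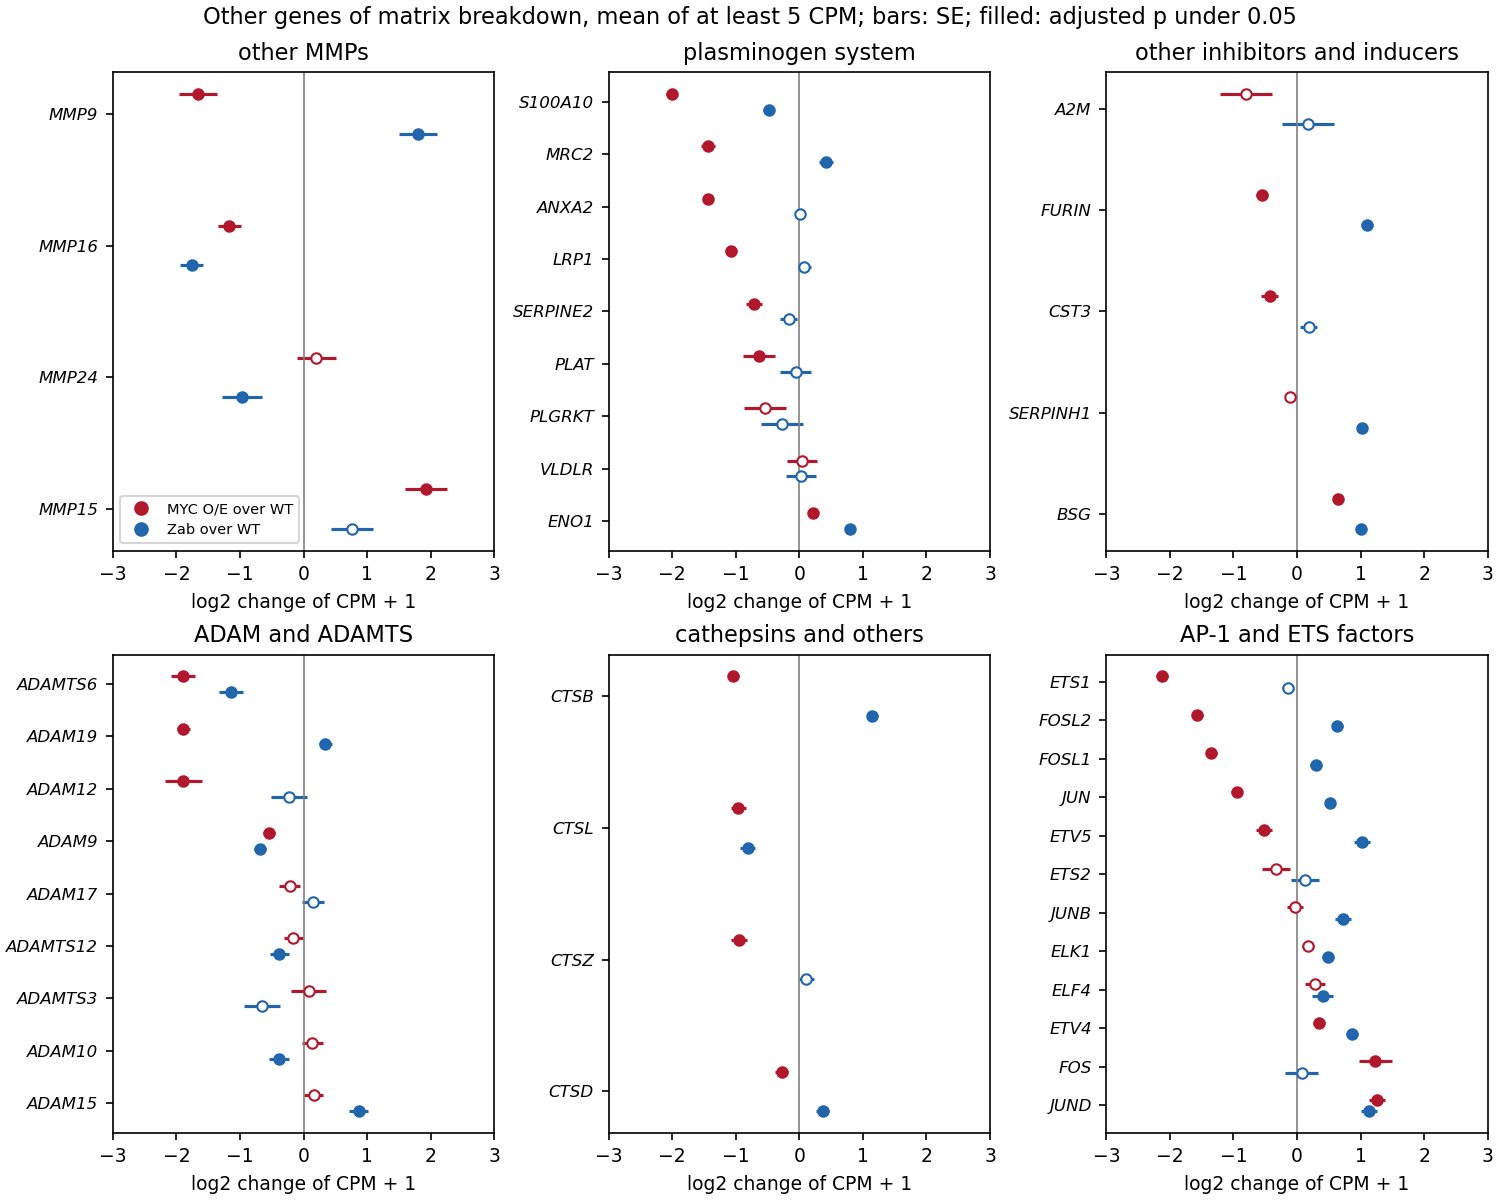
Change of other genes of matrix breakdown with a mean of at least 5 CPM (rows; 1 gene is left out) on the log2 scale of CPM + 1 (horizontal axes), in MYC O/E over WT (red) and Zab over WT (blue), with bars for the standard error; filled points passed a limma adjusted p of 0.05. S100A10, ETS1 and FOSL2 lie left of -1 in MYC O/E, and MMP9, FURIN and CTSB lie right of 1 in Zab.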

How the data were processed

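TT-seq libraries of U2OS RNA were grouped by the labelled genotype. Trim Galore 0.6.6, STAR, SAMtools 1.11, bedtools 2.29.2, hg19 and dm6 are named, without roles, per the submitters' processing notes. Per the file headers, the authors ran HOMER's analyzeRepeats over exons of coding RefSeq genes (hg19) on the opposite strand, with 1 transcript per symbol, chosen in each library. The deposited values are a signal: each library holds whole multiples of a step of its own. The basis of that step was not given in the sources used; dm6 is a fly build, so it may be a spike-in scale, which was not tested. Dividing by that step gave whole reads for 99.96% to 100% of values within 0.02 reads.

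CPM came from the deposited signal with TMM scaling (edgeR 4.0.16). Genes passing filterByExpr at 10 reads, 11985 of 19414, entered 1 limma 3.58.1 fit of log2(CPM + 1) with trend over all 8 libraries (4 residual degrees of freedom, R 4.3.3). Calls are at a Benjamini-Hochberg adjusted p under 0.05 over all genes, and log2 changes understate those of low genes. Folds are ratios of group mean CPM. The design had named edgeR's quasi-likelihood test for counts; since the unit was a signal, it became an alternative on the recovered reads, calling 2912 genes higher and 2864 lower in MYC O/E over WT. The method was tested on simulated data with 50 genes changed at each size. It recovered 96% of the genes at log2 changes of 1 and -1, but 30% at 0.5 and 28% at -0.5. A gene that did not pass may therefore differ by such an amount. Only well-covered genes were changed in the simulation, so recovery was not tested for genes with fewer reads, such as TIMP3 and MMP1. Alternatives were other scalings, pseudocount and filter settings, DESeq2 1.42.0, a replicate block, each library left out, and the pairs of WT and of Zab + MYC O/E libraries averaged; lengths of the transcripts counted and fits without 1 group were added after seeing the data.

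The members and gene lists were chosen with earlier results of these data known. Their counts and shares, set beside those of all tested genes, are therefore descriptions and no independent support. Of each list the text names up to 3 of the largest rises and 3 of the largest falls called in MYC O/E over WT with a mean of at least 5 CPM; it also names MYC, ADAR, marker genes, the chromosome 11 cluster and, for each member, the 2 genes with the most similar levels. Some genes that this rule takes are left out of the text. No label says that replicates came from separate cultures. MMP1 passed the filter through Zab alone and is left out of counts of members called. Intervals and floors cover counting error only.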

Additional observations from a re-analysis of the deposited data

Results flagged for a closer look

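The change between Zab + MYC O/E and MYC O/E differed from the change between Zab and WT for 7 of the 8 genes with reads in every library. This is by limma's interaction term with an adjusted p under 0.05 over all genes, where 53.1% of all tested genes were called. The interaction was positive for MMP3 (6.24), PLAUR (1.39), MMP14 (1.30) and MMP2 (0.52) and negative for TIMP3 (-2.86), TIMP2 (-2.34) and TIMP1 (-0.39), on the log2 scale. MMP3 was 40.1-fold higher in Zab + MYC O/E than in MYC O/E, but lower in Zab than in WT. TIMP2 ran the other way: it was lower in Zab + MYC O/E than in MYC O/E, and 3.15-fold higher in Zab than in WT. The median interaction over all tested genes was 0.11. The MMP2 term missed the threshold without Zab + MYC O/E replicate 2 (0.43). It also missed it with the WT and the Zab + MYC O/E pairs each averaged to 1 sample (0.52). The TIMP1 term missed the threshold with library totals (-0.092, limma adjusted p = 0.242). MYC was not raised in the libraries labelled Zab + MYC O/E, so the term does not compare Zab with and without raised MYC. Levels in Zab + MYC O/E lay close to those in WT, with 0 of the 8 genes called between them. The term is therefore nearly the sum of the changes of MYC O/E and of Zab over WT, with the sign reversed. It restates those 2 comparisons and is no separate evidence.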

How the results depend on the processing

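Over 20 alternative settings, 1022 of 1056 values of the 8 genes with reads in every library kept their direction and side of the threshold. These settings include the replicate block, which cannot change a direction. Of the 23 changes of direction, 18 were in values that had not passed the test. Of 264 counts of these genes called, 16 differed from the main count, 10 of them on the deposited scale, and 5 differed by over 1.5 times. Those 5 were all on the deposited scale: Zab over WT, 3 higher and 2 lower; Zab + MYC O/E over WT, 2 higher; MYC O/E over Zab, 2 higher; and Zab + MYC O/E over Zab, 3 higher. The 6 changes elsewhere were by 1 gene each, in Zab over WT and the interaction. On the deposited scale the direction also turned in Zab over WT for MMP2 (-0.55), MMP14 (-0.086) and TIMP3 (-0.22), in MYC O/E over Zab for MMP2 (0.39) and TIMP2 (0.31), and in Zab + MYC O/E over Zab for MMP2 (0.77), MMP14 (0.61), TIMP3 (0.57) and PLAUR (0.20). It turned too in Zab + MYC O/E over WT for MMP2 (0.22) and MMP3 (0.25), and in the interaction for TIMP1 (0.027). There the median of all genes moved by -0.62 in Zab over WT, 1.08 in MYC O/E over Zab and 0.87 in Zab + MYC O/E over Zab, so the scale itself moves these values. Library totals turned MMP2 in Zab over WT (-0.13) and in Zab + MYC O/E over Zab (0.10), and MMP3 in Zab + MYC O/E over WT (0.006). The PLAU interaction was -0.095 per length of the transcript counted, a setting chosen after seeing the data.

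Leaving out 1 library kept every count of calls in MYC O/E over WT (2 higher, 6 lower). It gave 5 to 6 higher in Zab over WT and 3 to 4 higher in the interaction. The value for TIMP3 in Zab over WT ranged from -0.14 without WT replicate 1 to 0.82 without WT replicate 2. In Zab + MYC O/E over WT, leaving out 1 library gave -0.15 to 0.029 for MMP2, -0.094 to 0.031 for MMP3, -0.011 to 0.047 for TIMP1, -0.37 to 0.59 for TIMP3, -0.026 to 0.29 for PLAU and -0.011 to 0.26 for PLAUR, none of which passed. Without Zab + MYC O/E replicate 1, MMP1 over Zab lost its call (-1.42, adjusted p = 0.164), and without replicate 2 the MMP2 interaction missed the threshold (0.43, adjusted p = 0.0595). Replicate numbers did not pair the libraries (correlations of -0.026 to 0.01). The fit with the replicate block again called 2 members higher and 6 lower in MYC O/E over WT. In Zab over WT it called 5 higher and 1 lower. Each group holds both replicate numbers, so the block leaves every log2 change as it was and can alter only the standard errors. The same counts are therefore a weak check. With the WT and the Zab + MYC O/E pairs each averaged to 1 sample, MMP14 in Zab over WT (0.54) and the MMP2 interaction (0.52) missed the threshold. MMP1 in Zab + MYC O/E over Zab (-1.93) missed it too. Depth limits MMP1 most, with 26 reads in all.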

Other observations

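Each member with a mean of at least 5 CPM was compared with 10753 genes by Pearson's correlation of log2(CPM + 1) over the 8 libraries, as a description of libraries that fall into few distinct groups. The gene nearest to TIMP1 was FLNA, which encodes the actin cross-linker filamin A (r = 0.9996), with means of 1882 CPM in MYC O/E, 5552 CPM in Zab, 2879 CPM in Zab + MYC O/E and 2922 CPM in WT, followed by PLEKHM2 (0.997). PLAUR ran nearest to QSOX1, a secreted sulfhydryl oxidase (0.9988), and MTMR14 (0.9974). PLAU ran nearest to PSAP, the precursor of the saposins (0.9967), and COL6A2, a collagen VI chain (0.9965), which had means of 29.3 CPM in MYC O/E, 245 CPM in Zab, 89.9 CPM in Zab + MYC O/E and 91.0 CPM in WT. MMP14 ran nearest to CYP24A1, the vitamin D 24-hydroxylase (0.996), and TRIOBP (0.9955).

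MMP3 ran nearest to SEMA3C, a secreted semaphorin (0.9975), and CCDC80 (0.9971), which had means of 5.28 CPM in MYC O/E, 34.8 CPM in Zab, 47.5 CPM in Zab + MYC O/E and 54.0 CPM in WT. MMP2 ran nearest to CFLAR, which encodes the caspase-8 regulator c-FLIP (0.9981), and SH3KBP1 (0.9938). TIMP2 ran nearest to IRAK1, a kinase of interleukin-1 and Toll-like receptor signalling (0.9973), and MLEC (0.9966). For TIMP3, the splicing factor SRSF7 (0.9889) had means of 181 CPM in MYC O/E against 121 CPM in WT.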
